A study of Oryctolagus cuniculus with 54 samples.

Results

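The first 4 days of air breathing after birth at term were examined in rabbit lung by comparing 3 pups collected at T35 with 3 pups collected at T31. These 6 libraries, of 54 in the series, are all those of run 1 from these time points, with 1 library per animal (T31 animals 1, 10 and 15, and T35 animals 1, 6 and 11). All pups were New Zealand White rabbits born naturally on day 31 of gestation. T31 pups were collected right after birth, T35 pups were kept for 4 days in room air with the dam, and the labels name no treatment or genetic change for either group. Each pup came from a different dam, and the right lung was homogenised whole, so that fewer cells of a type and less RNA per cell cannot be told apart. Fetal pups (F20 to F29) were taken by C-section, and later term pups (T37 and T42) were kept for 6 and 11 days. Preterm pups (P0, P3 and P7) were delivered by C-section on day 28, fed milk formula and kept in room air. P0 pups were collected 1 h after delivery, P3 pups after 3 days and P7 pups later.

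At birth the lung exchanges its fluid for air, pulmonary blood flow rises, and the epithelium meets oxygen and microbes. In the days that follow, surfactant is secreted into the airspaces and resident macrophages settle in the alveoli. The division of saccules by new septa, which in rabbits begins before birth, continues. The question put to these libraries was which transcripts differed between the lung at the moment of birth and the lung after 4 days of breathing.

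Libraries were made with a 3′ kit that gives about 1 read per transcript, so CPM, the count of a gene scaled to a common library total, is a level that needs no correction for length. The 3 T31 libraries held 6514089 to 6742828 counts and the 3 T35 libraries 7217677 to 7381691. Correlations of log2 CPM between the 6 libraries ran from 0.953 to 0.98, and 0 pairs of libraries were identical. The table names genes by Ensembl identifier alone, and 0 of its 29587 identifiers could be paired with a symbol here. Neither cell type markers nor pathway genes could therefore be looked up, and the labelled tissue could not be checked against its markers. Only 4 identifiers are named below, 2 that rose and 2 that fell, each with the smallest p in its direction within 1 of the classes described next. They were chosen after their values were seen.

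Few genes passed the test between T31 and T35 with 3 pups in each group. Of 13167 genes tested, 24 differed by more than 2-fold with an adjusted p no higher than 0.05 (quasi-likelihood test of edgeR, Benjamini-Hochberg). Of these, 18 were higher at T35 (0.137% of the genes tested) and 6 were lower (0.0456%). The groups did not overlap in CPM for any of the 24, which was also the case for 17.9% of all genes tested. On the same libraries DESeq2 called 234, and edgeR called 186 when all 18 libraries of run 1 shared the estimate of spread. An unadjusted p under 0.05 was reached by 1501 genes, 804 higher and 697 lower, so the small number of calls does not show that few genes changed. The median log2 fold change of all genes was -0.01, and 90% of genes lay between -0.86 and 0.97. The number of calls rested on single T35 pups. Without T35 animal 6 it was 13, and without T35 animal 11 it was 84, of which 80 were higher at T35.

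**Figure D1:**
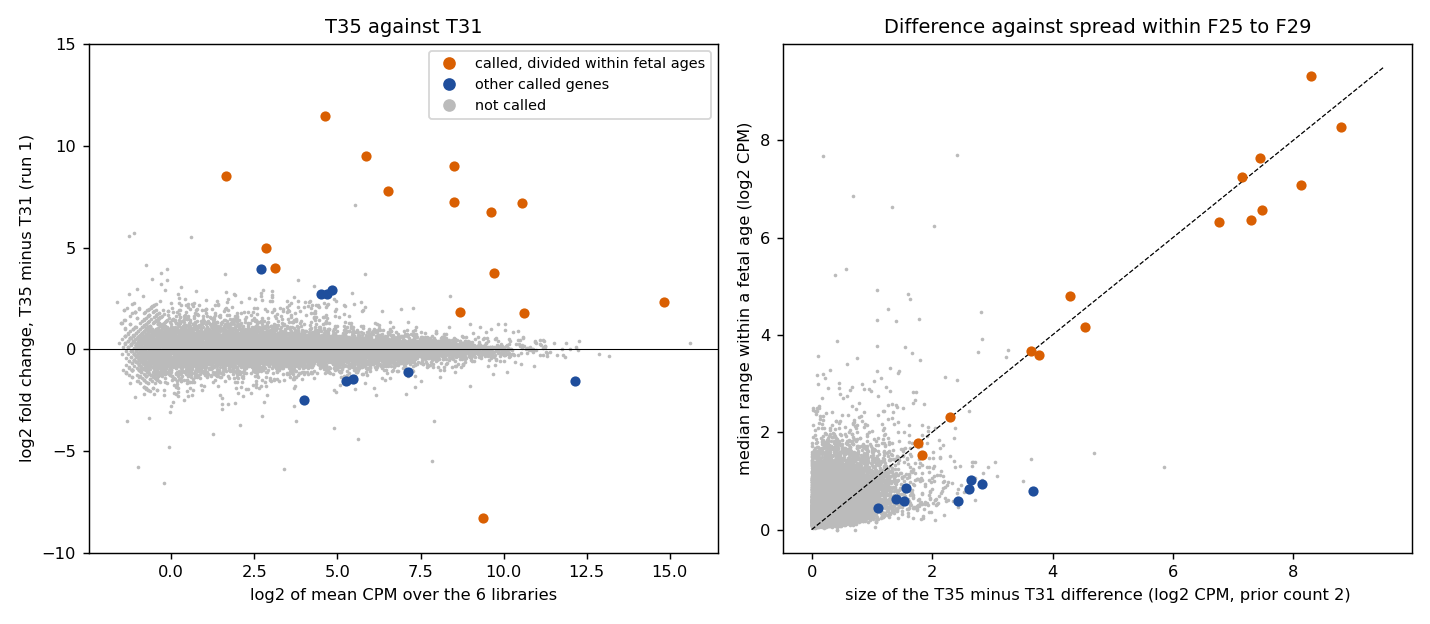
Left, log2 fold change of T35 minus T31 in run 1 against log2 of the mean CPM over the 6 libraries, with 1 point per gene tested. Right, the median range among fetal animals of the same age (log2 CPM, 4 ages of 3 animals) against the size of the T35 minus T31 difference, with the dashed line marking equality. The 15 orange genes lie along that line, with a ratio of 0.839 to 1.12, and the 9 blue genes lie below it, at 0.217 to 0.539. Outside the stretch of neighbouring identifiers, called genes were coloured by this ratio (orange from 0.75).

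Among the calls that were higher at T35, the largest differences came from a run of neighbouring identifiers. Some genes of this run changed less than called genes outside it. Of the 18 genes that were higher at T35, 14 carried Ensembl numbers within a stretch of 32 consecutive ones. The table lists all 32 numbers of the stretch, but 15 of them never reached 10 counts in any of the 54 libraries. Of the 15 genes of the stretch that could be tested, 14 were called, and the remaining one had a log2 fold change of -0.78 (adjusted p = 0.448, edgeR). Genes of the stretch with under 0.5 CPM in every T31 library passed the filter (0.5 CPM in at least 3 libraries) through T35 alone. A high T35 level thus decided that they were tested, so the share called was in part fixed by the filter. Neighbouring Ensembl numbers do not show neighbouring positions in the genome, and no positions were used here.

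ENSOCUG00000029102 had the smallest p of the 14. It stood at 1.48, 1.97 and 0.921 CPM in T31 animals 1, 10 and 15 (mean 1.46 ± 0.526, SD, n = 3), and at 718, 673 and 773 CPM in T35 animals 1, 6 and 11 (mean 721 ± 49.9, SD, n = 3). All T31 pups were near the limit of detection and all T35 pups were far above it. The log2 fold change was 8.999 (SE 0.26, adjusted p = 1.87e-06, edgeR).

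The 14 genes differed in level and in size of change. The most abundant one took 0.947%, 1.05% and 1.03% of all counts in the T31 libraries and 5.22%, 4.73% and 4.35% in the T35 libraries. It ranked as gene 3 by abundance in each T31 library and as gene 1 or 2 at T35. Among the 11 genes with more than 3 counts over the T31 libraries, log2 fold changes ran from 1.77 to 8.999 with a median of 4.95. Of the others, 1 had 3 counts over the 3 T31 libraries and 2517 at T35. The remaining pair had 0 counts in every T31 library. Set against a floor of 3 counts per library (0.461 CPM), they were at least 90.7-fold and 11.4-fold higher in every T35 library. Such floors cover counting error only.

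ENSOCUG00000032540 differed in the opposite direction. It stood at 1193, 1591 and 1238 CPM in T31 animals 1, 10 and 15 (mean 1340 ± 218, SD, n = 3). In T35 animals 1, 6 and 11 it stood at 5.69, 4.16 and 2.21 CPM (mean 4.02 ± 1.74, SD, n = 3). The log2 fold change was -8.31 (SE 0.34, adjusted p = 1.12e-05, edgeR), the largest difference among the 6 called genes that were lower at T35.

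These 15 genes were divided in the same way among animals of 1 age. At F29, before birth, the 3 fetuses held 3.71 to 484 CPM of ENSOCUG00000029102 and 5.30 to 1960 CPM of ENSOCUG00000032540. At F25, F27 and F28 in run 1 the ranges for ENSOCUG00000029102 were 0.693 to 490, 2.40 to 501 and 0.671 to 613 CPM. Thus fetuses of the same age spanned nearly the whole interval between T31 and T35 pups. For each gene the range of log2 CPM among the 3 fetuses of an age was taken in F25, F27, F28 and F29, libraries that the comparison of T35 with T31 did not use. The median of the 4 ranges was 1.53 to 9.31 in the 15 genes, 0.447 to 1.02 in the other 9 called genes and 0.448 over all genes tested. A median range of at least 1.53 was found in 3.37% of the genes tested.

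**Figure D2:**
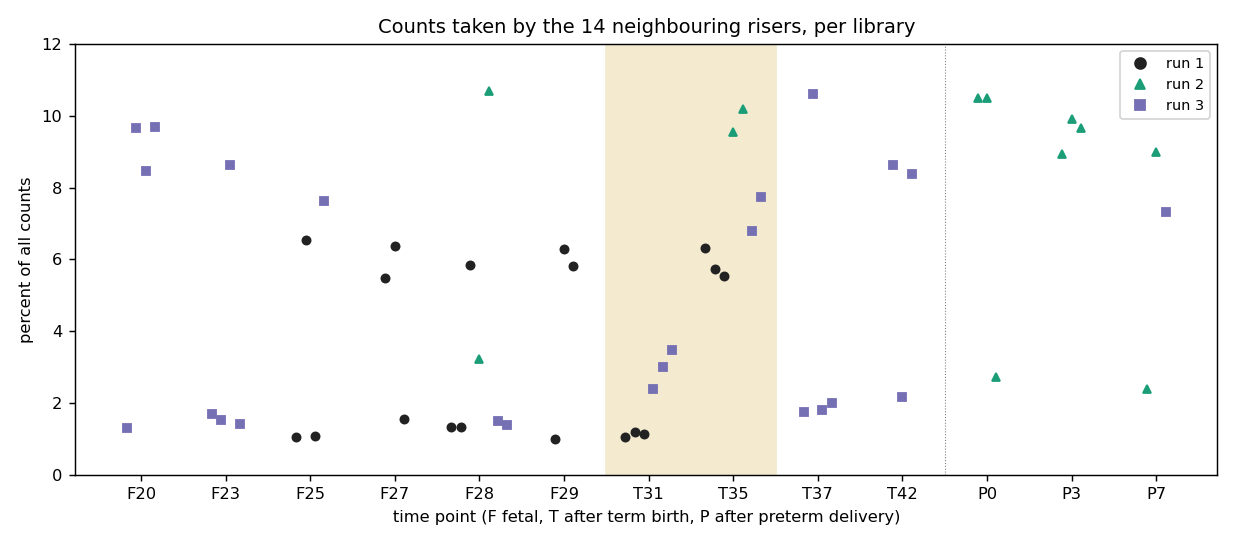
Percent of all counts taken by the 14 neighbouring genes in each of the 54 libraries, by time point and sequencing run, with T31 and T35 shaded. Libraries held 1.01% to 3.47% or 5.47% to 10.7%, and none lay between.

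The share of counts taken by the 14 genes showed this across the series. In run 1 it was 1.05% to 1.18% at T31 and 5.55% to 6.32% at T35. Over the 54 libraries it lay between 1.01% and 3.47% in 25 libraries and between 5.47% and 10.7% in 29. The same 25 libraries held at least 1000 CPM of ENSOCUG00000032540, from 1193 to 10160 CPM, and the other 29 held 1.38 to 66.8 CPM. By animal this was 22 with a low share and 23 with a high share, of 45. All 6 T31 animals of runs 1 and 3 were low and all 3 T35 animals were high. Both kinds occurred together in 10 of the 13 time points, T37 (3 low of 4 animals) and T42 (1 low of 3) among them, and in P0 and P7. The 6 animals that were sequenced more than once stayed on 1 side in every library. Age and this division cannot be told apart in the comparison of T35 with T31, because no T31 animal was high and no T35 animal was low. In a fit of all 18 libraries of run 1, where the fetal spread entered the test, 0 of the 15 genes were called. Whether the counts of the 15 genes follow the level of their transcripts or the way reads were assigned to these genes in each animal was not tested, so their fold changes are differences in counts. In the fit of 18 libraries ENSOCUG00000029102 had an adjusted p of 0.116 and ENSOCUG00000032540 of 0.159 (edgeR).

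**Figure D3:**
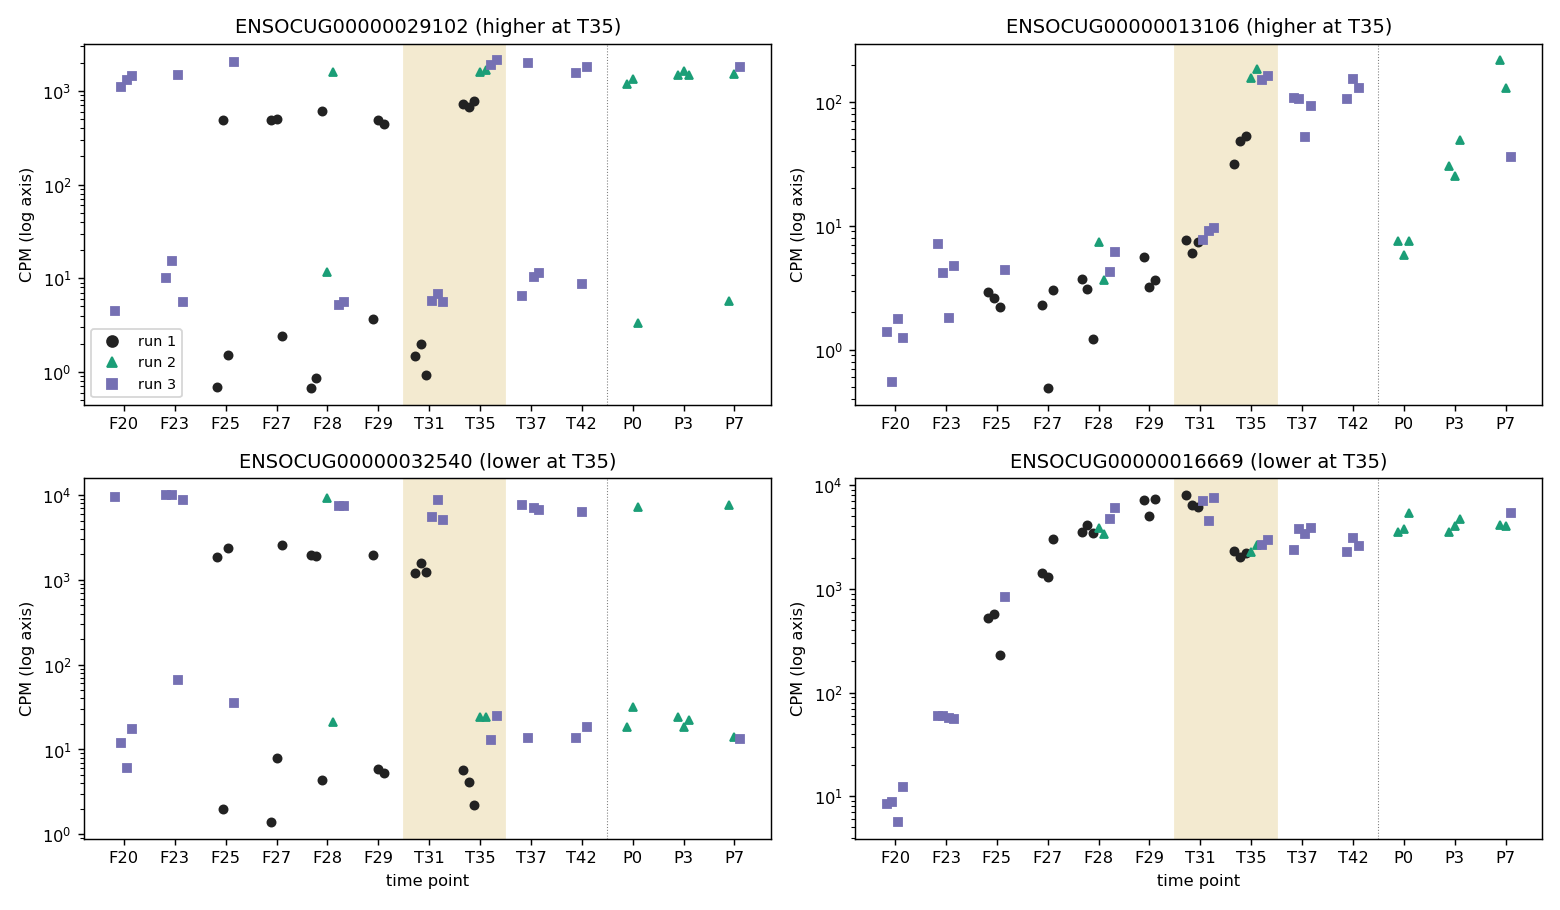
CPM of the 4 named genes in every library (log axis), by time point and sequencing run, with T31 and T35 shaded. The left pair of genes is divided within most ages, whereas ENSOCUG00000013106 is low until T31 and high from T35 on, and ENSOCUG00000016669 rises through gestation and is lower from T35 on.

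The other 9 called genes, 4 higher and 5 lower at T35, had a median range within a fetal age that was smaller than their T35 difference (ratio 0.217 to 0.539), although ENSOCUG00000013106 (1.02) and ENSOCUG00000016669 (0.848) varied more among fetuses than the median gene (0.448). A ratio under 0.75 was fixed by the choice, since called genes outside the stretch with a higher one joined the divided set. The calls of the 9 genes depended on the 15 genes, which contribute small p-values to the adjustment. When the 15 genes and their stretch of numbers were left out and the fit repeated, a choice made after seeing the data, 2 of the 9 stayed called and the other 7 had adjusted p-values of 0.0546 to 0.132 (edgeR). The log2 fold changes of the 9 hardly moved. The 2 that stayed were ENSOCUG00000013106 and ENSOCUG00000016669, each with an adjusted p of 0.0398. Without 1 pup at a time the count of calls outside the 15 genes was 5 without T31 animal 15, 5 without T35 animal 1, 2 without T35 animal 6 and 72 without T35 animal 11.

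ENSOCUG00000013106 rose after birth. It stood at 7.71, 6.07 and 7.37 CPM in T31 animals 1, 10 and 15 (mean 7.05 ± 0.867, SD, n = 3) and at 31.7, 48.2 and 53.5 CPM in T35 animals 1, 6 and 11 (mean 44.5 ± 11.4, SD, n = 3). Every T35 pup was above every T31 pup, with a log2 fold change of 2.73 (SE 0.27, adjusted p = 0.00395, edgeR). Before birth it was low throughout, at 0.488 to 5.64 CPM in the 12 fetal libraries of run 1. In run 3, with other animals, it was 7.60 to 9.54 CPM at T31, 52.4 to 108 CPM at T37 and 106 to 152 CPM at T42. The groups T31 and T37 did not overlap, and their log2 fold change was 3.22 (SE 0.30, adjusted p = 0.00453, edgeR). T35 animals 6 and 11 read 150 to 183 CPM when sequenced again in runs 2 and 3, so the level at T35 varied with the run.

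ENSOCUG00000016669 was among the most abundant transcripts and fell after birth. T31 animals 1, 10 and 15 held 8126, 6414 and 6098 CPM (mean 6879 ± 1091, SD, n = 3), and T35 animals 1, 6 and 11 held 2321, 2048 and 2211 CPM (mean 2193 ± 137, SD, n = 3). The groups were far apart, and the log2 fold change was -1.58 (SE 0.17, adjusted p = 0.00657, edgeR). Without T35 animal 6 the adjusted p was 0.065, and in run 3 alone it was 0.149. Of 99 genes with a mean of at least 1000 CPM, 4 were called, against 24 of all 13167 genes tested. ENSOCUG00000016669 was the only one of the 4 outside the 15 divided genes. Through gestation its mean climbed from 8.79 ± 2.79 CPM at F20 in run 3 (SD, n = 4) to 442 ± 186 at F25 and 6567 ± 1304 at F29, both in run 1 (SD, n = 3 each). The level varied with the run, as F25 animal 13 read 576 CPM in run 1 and 826 CPM in run 3. In run 3 the gene was at 4503 to 7564 CPM at T31, 2353 to 3852 at T37 and 2285 to 3112 at T42. The fall at T37 relative to T31 was called in these other animals (log2 fold change -1.09, SE 0.23, adjusted p = 0.0372, edgeR).

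The animals of run 3, 3 at T31 and 4 at T37, had no pup in common with the comparison of T35 with T31. All 4 rising genes and 3 of the 5 falling genes had T37 values entirely on the same side of the T31 values as at T35, where 20.3% of the genes tested in run 3 had groups that did not overlap in either direction. Of the 9 genes, 6 were called there, 3 higher (background 1.65%) and 3 lower (background 0.675%). Log2 fold changes of T37 minus T31 were 2.16 to 5.27 for the 4 rising genes and -2.87 to -0.77 for the 5 falling genes.

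The opposite view gave a wider picture. In run 3, 303 of 13032 genes were called at T37, 215 higher and 88 lower. The number was 6 without T37 animal 46, 11 without T37 animal 47, 63 without T37 animal 12, 476 without T37 animal 27 and 187 without T31 animal 18. Outside the stretch of numbers, 214 of the genes higher at T37 and 86 of those lower had been tested at T35. The first set had a median log2 fold change of 0.59 at T35 (quartiles 0.15 and 1.63) and 82.2% were above 0. The second had a median of -0.67 (quartiles -1.10 and -0.24) and 86% were below 0. The medians were 1.20 and -0.91 with 9 animals of runs 1 and 3, and 1.38 and -0.97 in run 3 alone. Both of these fits use the T31 libraries of the T37 comparison. Over the 12498 genes tested in both runs the median was -0.01 and 48.7% were above 0. Changes above 2-fold in the same direction at T35 were seen in 81 of the 214 and 25 of the 86, but 3 of each set were called there. Over all genes tested in both runs, 4.38% were over 2-fold higher at T35 and 3.11% over 2-fold lower. Of all genes tested at T35, 0.137% were called higher and 0.0456% lower. At T37 the medians of the 214 and the 86 genes were 1.65 and -1.41. Most genes called after 6 days thus had a difference of the same sign after 4 days, in other animals and another run.

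**Figure D4:**
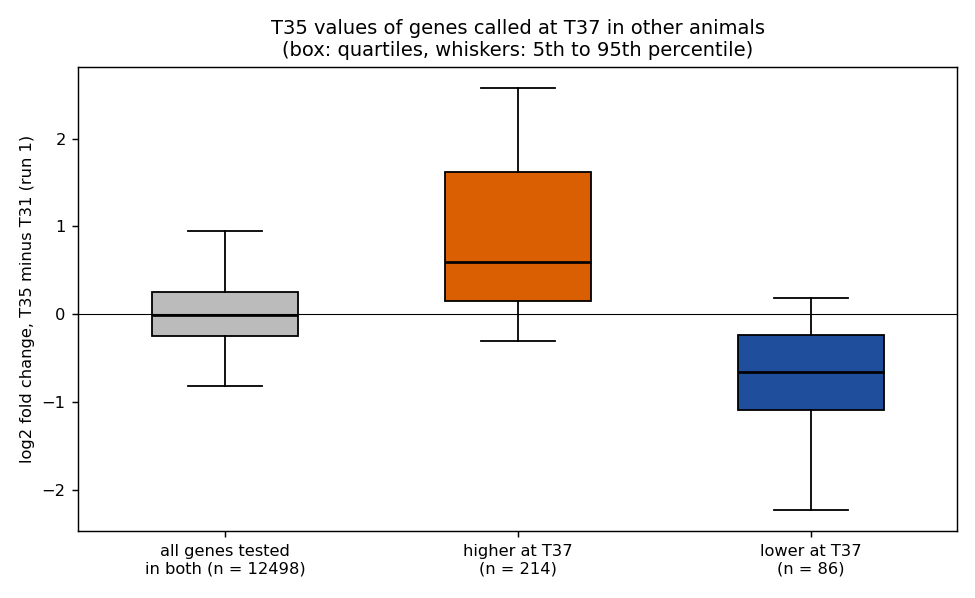
Log2 fold change of T35 minus T31 in run 1 for all genes tested in both runs and for genes called higher or lower at T37 in run 3 (box, quartiles and median; whiskers, 5th and 95th percentile). The medians are -0.01, 0.59 and -0.67.

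Read from T35, the picture was similar. Outside the stretch, 772 genes that were higher at T35 with an unadjusted p under 0.05 were tested in run 3, and 81.9% of them were higher at T37 (median log2 0.57). Of 669 that were lower at T35, 27.2% were higher at T37 (median log2 -0.35). Over all genes 50.1% were higher at T37. Among those that changed more than 2-fold at T35, 333 of 371 and 39 of 224 were higher at T37.

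The T35 pups were not alike in these genes. Relative to the T31 mean, the median log2 difference of the 214 genes higher at T37 was 0.80 in T35 animal 1, 0.70 in animal 6 and 0.25 in animal 11. For the 86 lower genes it was -0.74, -0.52 and -0.47. Animal 11 was nearest to T31 in both sets.

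Around birth itself little passed the test. Comparing T31 with F29 in run 1, 0 of 13054 genes were called (0%) with edgeR, where the smallest adjusted p was 0.0839 and 1468 genes had an unadjusted p under 0.05. On the same libraries limma-voom called 0 and DESeq2 called 137. The count was 203 without T31 animal 15, 12 without F29 animal 2, 4 without T31 animal 1 and 1 without F29 animal 11. This comparison shares the T31 libraries with that of T35, so values are only set side by side. ENSOCUG00000013106 was 3.21 to 5.64 CPM at F29 and ENSOCUG00000016669 was 5067 to 7438 CPM. For the 8 of the 9 genes that could be tested, the log2 fold change of T31 minus F29 was between -0.43 and 0.79, with adjusted p-values of 0.399 to 0.961 (edgeR).

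The course at term was compared with that after preterm delivery, from P0 to P3. The preterm libraries came from run 2, so each course lies within 1 run. Prematurity cannot be told apart from run, from C-section against natural birth, or from formula against rearing by the dam. Nor can it be told apart from the first collection, 1 h after delivery at P0 and right after birth at T31. The courses also span 4 days at term and 3 days after preterm delivery. The difference of the courses, (T35 minus T31) minus (P3 minus P0), was called for 25 of 14016 genes (0.178%), 17 higher and 8 lower at term. With limma-voom 0 were called. Leaving out 1 pup gave 0 calls without T31 animal 10, T35 animals 1 or 6, P0 animals 1 or 4, or P3 animals 2 or 3. It gave 3 without T31 animal 1, 2 without P3 animal 1, 118 without T35 animal 11 and 219 without T31 animal 15.

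Of the 9 genes, the 4 that rose at term had log2 values of 1.17 to 2.54 from P0 to P3, and 0 of the 4 passed the test of the difference between the courses. The 5 that fell at term, with values of -2.515 to -1.10, had values of -0.53 to 0.004 after preterm delivery, and 2 of the 5 passed it. The 9 genes were chosen by the T35 minus T31 difference, which is part of this test and comes from the same libraries, so the choice favours a call. The P0 to P3 values do not show levels before P0. In run 2 the gene with a value of 0.004 held 120.6 to 175.5 CPM at F28 and 39.4 to 65.6 CPM at P0. For the gene at -0.53 these were 24.66 to 38.45 and 13.7 to 26.4 CPM. The gene at -0.44 held 36.7 to 39.3 and 17.4 to 49.0 CPM. The gene at -0.37 was not lower at P0 (40.1 to 45.0 and 43.6 to 63.5 CPM). ENSOCUG00000016669 was not lower either (3417 to 3899 CPM at F28). A fall before P0 was not tested. ENSOCUG00000016669 was 3525 to 5447 CPM at P0 and 3554 to 4710 CPM at P3, with groups that overlapped, and the difference of the courses was -1.51 (SE 0.24, adjusted p = 0.0405, edgeR). ENSOCUG00000013106 was 5.80 to 7.503 CPM at P0 and 25.4 to 49.4 CPM at P3, and the difference of the courses was 0.40 (SE 0.39, adjusted p = 0.764, edgeR). The term course of this gene was 2.73 in run 1 and 4.16 in run 3, which holds other T31 animals. In run 2, the run of the preterm libraries, T35 animals 6 and 11 read 156 and 183 CPM. The missing call thus does not show that the courses of this gene match.

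**Figure D5:**
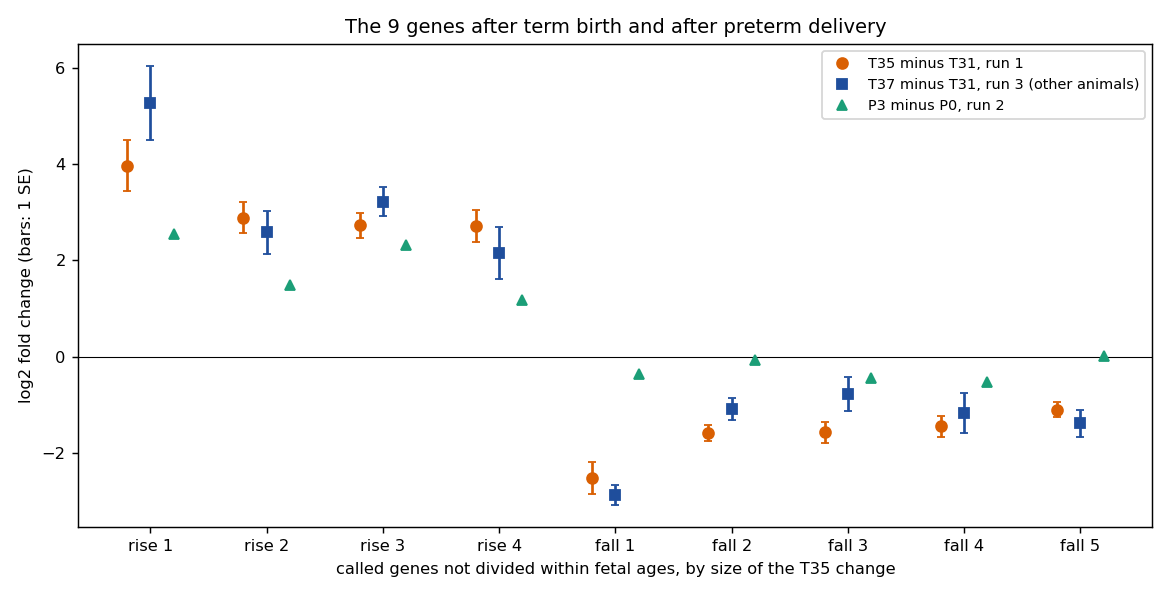
Log2 fold changes of the 9 called genes outside the divided set, at T35 in run 1, at T37 in run 3 and from P0 to P3 in run 2 (bars, 1 SE from edgeR, not drawn for P3). The 4 rising genes are above 0 in all 3 comparisons, and the 5 falling genes lie between -0.53 and 0.004 after preterm delivery.

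Of the 25 genes that differed between the courses, 1 belonged to the stretch of numbers and 16 had a positive value at term and a negative one after preterm delivery. These signs follow in part from the test that chose the genes. For the 16 genes the median log2 value was 2.23 at term (0.44 to 3.13) and -1.34 after preterm delivery (-1.86 to -0.42). Their median level was 11.1, 7.28 and 10.7 CPM in T31 animals 1, 10 and 15, and 70.4, 48.4 and 14.5 CPM in T35 animals 1, 6 and 11. T35 animal 11 was close to the T31 pups. The median level of the 16 genes was 27.7 to 35.0 CPM in the P0 libraries and 10.5 to 15.2 CPM in the P3 libraries. Their levels before P0 were not read, so a rise by P0 was not tested.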

How the data were processed

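Lung RNA was sequenced from the 3′ end of transcripts. The authors trimmed reads with BBduk, used STAR to align them to OryCun2.0, and obtained gene totals on the Ensembl annotation by HTSeq-count. The deposited values are whole-number counts, not normalized, and 0 columns were left without a sample. Here counts were tested with edgeR 4.0.16 (R 4.3.3; TMM, quasi-likelihood) for genes reaching 0.5 CPM in 3 or more fitted libraries, called when they differed over 2-fold with an adjusted p no higher than 0.05. SEs were taken as the log2 fold change over the root of F. limma-voom (limma 3.58.1), DESeq2 1.42.0, other filters, scalings and samples, and each animal left out were alternatives. Ranges within ages used log2 CPM with a prior count of 2. Procedures were run on simulated counts with planted changes. Each gene was drawn on its own, so the simulation did not cover sets of genes divided among animals.

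The comparison and the lists were chosen with earlier results of these data known. The planned rule for named genes took the largest changes among genes with a symbol. No identifier had one, so neither it nor the marker, pathway and promoter lists could be applied. The 15 divided genes were set after their values were seen, as the called genes in the stretch of numbers (gaps under 10) and any other called gene whose fetal range was at least 0.75 of its T35 difference.

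Reads carry no molecular identifiers. The animal was the replicate.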

Additional observations from a re-analysis of the deposited data

Results flagged for a closer look

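In groups of 4 animals, 15 sets of values were examined for a sample far from the others by Dixon's ratio of gap to range, and 8 exceeded its critical value for 4 samples. Chance flags about 5% of such groups, but most of the sets hold divided genes, which were already known to split the animals. The rate is therefore no yardstick for the number of flags. The sets are also not independent, since they hold the same animals. The 8 flags all concern the divided genes. For ENSOCUG00000029102 the ratio was 0.993 at F23, where 1 animal read 1488 CPM and the next 15.4, and 0.997 at T37, where 1 animal read 1982 CPM and the next 11.4. For ENSOCUG00000032540 it was 0.999 at F20 (1 animal at 9453 CPM, the next at 17.6), 0.857 at F23 (1 at 66.8 CPM, the next at 8716) and 0.874 at T37 (1 at 13.8 CPM, the next at 6694). For the share of counts taken by the 14 neighbouring genes it was 0.853 at F20 (1 animal at 1.30%, the next at 8.45%), 0.962 at F23 (1 at 8.63%, the next at 1.68%) and 0.974 at T37 (1 at 10.6%, the next at 1.99%). What sets these animals apart was not tested.

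The change of ENSOCUG00000016669 at term differed from its change after preterm delivery by -1.51 on the log2 scale (edgeR, adjusted p = 0.0405). The call was lost with limma-voom, which called 0 genes in this comparison, and 0 genes were called without any 1 of 7 pups named in the comparison of courses above. The courses lie in different sequencing runs and differ in mode of delivery, feeding and time of the first collection, so prematurity cannot be told apart from these. The gene was chosen by its change at term.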

How the results depend on the processing

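The 24 calls of T35 against T31 became 234 with DESeq2, 121 without a filter on low counts, 15 with at least 10 counts in each library, 186 with all 18 libraries of run 1 and 106 with 9 animals of runs 1 and 3. Without single animals they ranged from 13 to 84. The 9 calls outside the divided genes became 219, 106, 186 and 90 with DESeq2, no filter, 18 libraries and 9 animals, 2 after the divided genes were left out, and 2 to 72 without single animals. The strict filter removed divided genes with few counts at T31, ENSOCUG00000029102 among them. The causes of the other shifts were not tested. Log2 fold changes of the 4 named genes kept their sign under every alternative that could test them. The medians at T35 of genes called higher and lower at T37 became 1.20 and -0.91 with 9 animals and 1.38 and -0.97 in run 3 alone, where the T31 animals are those of the T37 comparison. Without single animals they were 0.555 to 0.68 and -0.68 to -0.52. The 303 calls at T37 became 178 with limma-voom, 690 with DESeq2 and 507 without a filter, and 6 to 476 without single animals. The 0 calls of T31 against F29 became 137 with DESeq2 and 1 without a filter, and 0 to 203 without single animals. The 25 calls of term against preterm course became 0 with limma-voom, 199 with DESeq2 and 168 without a filter, and 0 to 219 without single animals.

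No paired analysis was possible because each pup was collected only once and had its own dam. T31 animal 1 and T35 animal 1 are different pups. With a replicate block on the numbers shared within each course, the term against preterm comparison gave 443 calls on 1 residual degree of freedom. Such numbers do not join samples of the same animal, so nothing is read from these calls. Alternatives for list counts were not run, since no list could be applied. The alternatives for the 9 calls and for the T37 medians were added after seeing the data. With 3 animals per group the counts of calls are less certain than the values of single genes.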

Other observations

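The 16 genes called in the difference of courses with a positive value at term and a negative one after preterm delivery were also read in the libraries of T35 animals 6 and 11 that were sequenced again. T35 animal 1 has 1 library. Their median level was 51.9 and 44.8 CPM in T35 animal 6 in runs 2 and 3, and 12.9 and 12.1 CPM in T35 animal 11. In run 3 they stood at 8.24 to 11.7 CPM in the 3 T31 animals, and at 42.0, 53.7 and 42.7 CPM in T37 animals 12, 46 and 47. T37 animal 27 read 19.5 CPM. The low level of T35 animal 11 was thus seen in each of its 3 libraries. These genes were chosen by the comparison of courses, so their values are a description.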
